A study of Caenorhabditis elegans with 4 samples.

Results

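Chromosome IV of Caenorhabditis elegans carried 116 MIS-12 peaks in ChIP replicate 1, 139 in ChIP replicate 2 and 234 in a list deposited for the series as a whole, called the combined list here. These are all peaks that the lists place on IV, of 694, 746 and 1251 peaks in all. The lists were kept apart, and a peak counted as found in another list when a peak there overlapped it by at least 1 bp. Chromatin came from formaldehyde-fixed, mixed-stage embryos of the wild-type strain N2, a population of both sexes grown at 20 degrees Celsius, with no transgene or treatment named in the labels. The embryos were released by bleaching from gravid adults grown in liquid culture. Of the 4 samples, 2 are ChIP samples made with the affinity-purified rabbit polyclonal antibody SDQ2966 against MIS-12 and 2 are inputs, which were not analysed here. Nothing in the labels says that the replicates came from separate cultures, so the spread between them may be technical.

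MIS-12 belongs to the outer kinetochore. The complex it names bridges centromeric chromatin and the microtubule-binding KNL-1 and NDC-80 proteins, and chromosomes that lack it fail to segregate. C. elegans chromosomes are holocentric, with kinetochores assembled along their whole length rather than at a single centromere. Worm autosomes have gene-dense centres with little recombination, flanked by arms that recombine more and hold more repeats. Chromosome IV is also the main home of the worm's piRNA genes. No annotation of the build of the peak lists was used here, so peaks are named by position in WormBase WS220, the build given in the file headers.

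Replicate 1 peaks covered 68006 bp of IV, replicate 2 peaks 73203 bp and combined peaks 122169 bp. That is 3.89, 4.18 and 6.98 kb per Mb, taking the highest peak end on IV (17493824) as the chromosome length. Median width was 297, 261 and 293.5 bp. The narrowest combined peak had 146 bp, a width shared by 9 peaks on IV. Wide peaks were few but held much of the covered sequence: 7, 7 and 11 peaks of at least 2000 bp made up 36.1%, 33.7% and 27.8% of it. The authors' score of a peak, whose definition is not stated, ran from 50.2 to 3100 in replicate 1, from 50.05 to 3148 in replicate 2 and from 1.38 to 55.6 in the combined list. The replicate scores share a caller and were compared with each other, whereas combined scores were used only within their own list.

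The strongest regions of IV were found in all 3 lists. Each of the 37 highest-scoring combined peaks overlapped peaks of both replicates, and the peak ranked 38 was the first that overlapped neither. Of these 37, 7 lay in the left 33.3% of the chromosome, 9 in the middle and 21 in the right. All combined peaks numbered 53, 95 and 86 in these parts, and those found in both replicates 13, 25 and 30. The highest score belonged to a 3221-bp peak in the left part (3206315 to 3209535, score 55.6), which both replicates called as a single peak at 3100 (3206330 to 3209630 and 3206311 to 3209652). A score of exactly 3100 was given to 5 peaks of each replicate on IV, and only 1 replicate 2 peak lay above it, so the strongest replicate peaks cannot be ranked by score.

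The next 11 combined peaks by score were a mixture of wide and compact regions. A 2333-bp peak in the right part (12730376 to 12732708) scored 52.1 and stood at 3100 in each replicate. Also in the right part lay a compact peak of 608 bp (12891245 to 12891852) with a combined score of 52.0, but with 483 in replicate 1 and 1775 in replicate 2. A 2168-bp peak in the left part (2828425 to 2830592, score 48.2) reached 3100 in both. Thus a narrow peak ranked among the strongest of the combined list although its replicate 1 score was far under the ceiling.

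Rank 5 was held by a 1570-bp peak (13360441 to 13362010, score 44.3), which the replicates scored at 2293 and 3100. The peak ranked 6 (9045722 to 9048709, 2988 bp, score 43.9) was 1 peak at 3100 in replicate 1, whereas replicate 2 divided it into a first piece at 322 and a second piece at 3148. A 5077-bp peak followed (11070838 to 11075914, score 34.5). Both replicates called it whole at 3100 and from base 11070866, with ends at 11075983 and 11075913. Its borders in the replicates were thus almost the same.

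The remaining 5 of the first 12 were at most 1269 bp wide, and in each of them the replicate 2 score was the higher. At 15895705 to 15896217 (combined score 31.4) the replicates scored 138 and 643. At 15409283 to 15409782 (score 31.0) they scored 460 and 504. The 1269-bp peak at 14779179 to 14780447 (score 29.8) had 643 and 1003. In the left part, the peak at 3366650 to 3367135 (score 29.3) had 330 and 541, and the last of the 12, at 15373929 to 15374780 (score 28.5), had 183 and 611. Of the 12, 7 lay in the right part, 2 in the middle and 3 in the left.

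**Figure D1:**
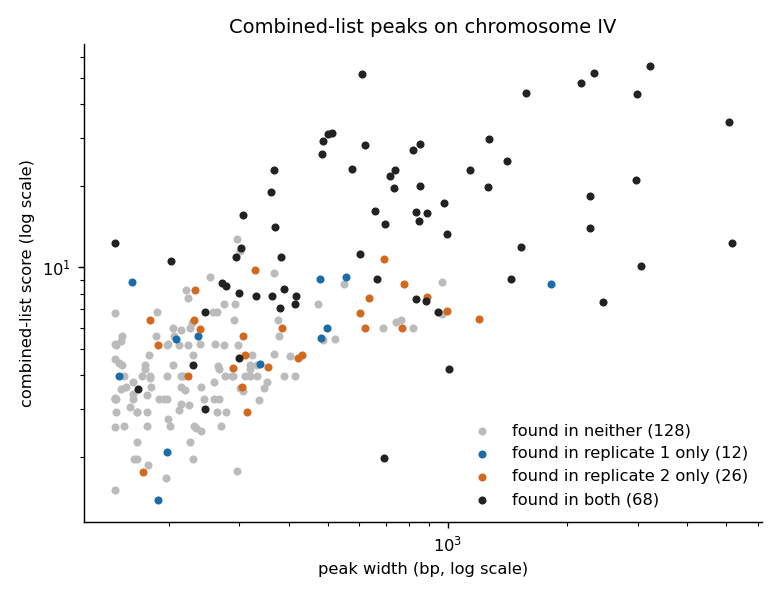
Each point is 1 of the 234 combined-list peaks on chromosome IV, with its width in bp on the x axis and its score on the y axis (both log scales), coloured by the replicate lists it overlaps. The 68 peaks found in both replicates extend to the widest and highest points, and the 128 found in neither stay at 968 bp or less and at scores of 12.7 or less.

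Width and score were not interchangeable. The widest combined peak on IV, of 5165 bp (4416455 to 4421619), scored only 12.3. Both replicates gave this region as a single peak of 5681 bp, from 4416406 to 4422086 (score 1231) and from 4416410 to 4422090 (score 1614), which takes in the next combined peak too (4421684 to 4421885, score 10.6). The other wide peaks of the first 5 by width were those at 11070838 and 3206315, described above, the one at 9045722, and a 3061-bp peak (6722672 to 6725732, score 10.1). This last region was broken up in the replicates: replicate 1 had 1 peak there with a score of 54.6, and replicate 2 had 6, the highest at 153. Its wide outline was thus seen in the combined list alone. All 11 combined peaks of at least 2000 bp overlapped both replicates, as did 8 of 10 peaks from 1000 to 2000 bp, 24 of 41 from 500 to 1000 bp, 23 of 114 from 200 to 500 bp and 2 of 58 under 200 bp. A wider peak meets the 1-bp rule more easily, so a rise with width is in part built into these counts. They were made on IV only.

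On IV 79 of 116 replicate 1 peaks were found in replicate 2 (68.1%, Wilson 95% interval 59.2 to 75.9), against 60.8% over all chromosomes. In the other direction it was 81 of 139 (58.3%, 49.96 to 66.1), against 56.2% over all. On the other 5 chromosomes together the shares were 59.3% (55.3 to 63.3) and 55.8% (51.8 to 59.7). IV had the highest replicate 1 share of the 6 chromosomes, where the others lay between 55.1% and 63.2%, but its interval overlaps that of the others. A comparison of 1 chromosome with 5 by exact permutation cannot go below p = 0.167, so no test was made of this or the other differences between chromosomes. Wilson intervals take peaks as independent, which neighbouring peaks are not.

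Sharing rose with score. In the lowest quartile of replicate 1 scores on IV (50.2 to 62.7) 8 of 29 peaks were found in replicate 2 (27.6%, 14.7 to 45.7), and in the highest (192.6 to 3100) 27 of 29 were (93.1%, 78.04 to 98.1). In replicate 2 the lowest quartile (50.05 to 66.2) had 9 of 35 (25.7%, 14.2 to 42.1), whereas all 35 peaks of the highest (321.6 to 3148) were found in replicate 1. Median width rose between the same quartiles, from 174 to 804 bp in replicate 1 and from 157 to 818 bp in replicate 2. Wider peaks meet the 1-bp rule more easily, so score and width cannot be told apart here. Quartiles were taken on IV only. For the 79 shared replicate 1 peaks the median score was 130 and the median width 439 bp, and for the 37 unshared ones 58.6 and 222 bp. In replicate 2 the 81 shared peaks had 224 and 371 bp and the 58 unshared ones 71.7 and 192 bp. None of the unshared peaks in either list was as wide as 1000 bp.

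The strongest peaks on IV without a counterpart differed between the replicates. The first of replicate 1 (1831044 to 1831682, score 364) and the second (13909796 to 13910195, score 216) each matched a combined peak, with scores of 9.09 and 9.20. The third (4783881 to 4784072, score 160) matched none. In replicate 2 the first of them (17061580 to 17062107, score 294) and the second (15189484 to 15189730, score 286) were fragments of regions that replicate 1 had also called in part, inside combined peaks with scores of 18.3 and 19.8. The third (6668789 to 6669447, score 272) opened the dense region described below, in a group of peaks where replicate 1 had none. The first 2 of replicate 2 thus lay in regions that the replicates had divided differently.

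Peaks found in both lists mostly had the same borders. Among the 64 pairs in which each peak overlapped only the other, the median absolute difference was 19 bp at the start and 19 bp at the end. Both borders lay within 50 bp in 44 of the 64, and the largest difference of any border was 567 bp. Combined peaks were less like the replicate peaks in outline: with replicate 1, both borders were within 50 bp in 16 of 63 such pairs, and with replicate 2 in 18 of 61. A region was more often divided in replicate 2 when seen from the combined list. Of its peaks on IV, 12 overlapped several replicate 1 peaks, with at most 3 each, and 23 overlapped several replicate 2 peaks, with at most 6.

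Scores of matching peaks rose together with wide scatter. Over the 79 replicate 1 peaks with a counterpart, Spearman's rho with the highest overlapping replicate 2 score was 0.62 and Pearson's r on the log10 scale 0.74. With at least 50% reciprocal overlap, over 69 pairs, these were 0.68 and 0.79. On the other 5 chromosomes together the corresponding values of rho were 0.73 (343 pairs) and 0.87 (260 pairs). These are descriptions across peaks of the same 2 libraries, with 4 of the IV pairs tied at the ceiling of 3100. Leaving out scores of 3000 or more gave a rho of 0.52 over 73 pairs.

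Replicate 2 scored higher in 49 of the 69 pairs on IV (71.0%, 59.4 to 80.4), with a median ratio of replicate 2 to replicate 1 of 1.56. The other 5 chromosomes gave 73.8% (68.2 to 78.8) and a ratio of 1.45. Along IV the ratio was uneven. It was 1.15 over the 12 pairs of the left part, 1.22 over the 23 of the middle and 1.86 over the 34 of the right. In the right part replicate 2 was the higher in 28 of 34 pairs (82.4%, 66.5 to 91.7), in the left part in 6 of 12 (50.0%, 25.4 to 74.6) and in the middle in 15 of 23 (65.2%, 44.9 to 81.2). Replicate 2 scores at least 4 times those of replicate 1 were found in 9 pairs of the right part, 1 of the middle and none of the left. Uneven ratios were not found on IV alone: the middle of I (6 pairs) had a median ratio of 3.27, the middle of X (12 pairs) 2.32 and the left part of II (27 pairs) 1.89. Read depth is unknown for both replicates, so a ratio above 1 does not show more MIS-12 in replicate 2.

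**Figure D2:**
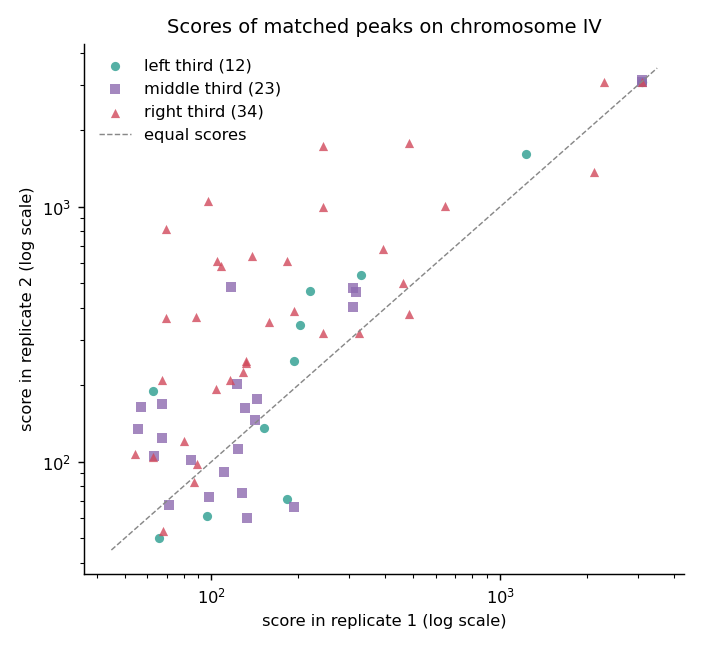
Scores of the 69 pairs of replicate peaks on chromosome IV that cover at least 50% of each other, replicate 1 on the x axis and replicate 2 on the y axis (log scales), with a marker for each part of the chromosome and a dashed line of equal scores. Points of the right part (34) spread far above the line at replicate 1 scores near 100, and 4 pairs sit together at 3100.

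The pairs that differed most lay in the right part, apart from 1. At 12169260 to 12170693 replicate 2 had a single 1434-bp peak at 1730, which replicate 1 divided in 2, with scores of 74.9 and 244 (ratios of 23.1 and 7.08). A pair of neighbouring peaks had similar ends in both lists: 14057109 to 14058060 scored 97.3 in replicate 1 against 1053, and 14058417 to 14059246 scored 69.5 against 818 (ratios of 10.8 and 11.8). Replicate 2 had 1 more peak between them, at 14058136 to 14058338 (score 178.5). The exception lay in the middle, where a replicate 1 peak at 6357744 to 6358605 (score 127) was set against a 3128-bp replicate 2 peak at 839 (ratio 6.59).

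The combined list added many weak peaks. Of its 234 peaks on IV, 68 (29.1%, 23.6 to 35.2) overlapped both replicates, against 27.0% over all chromosomes. Another 12 overlapped replicate 1 only (5.13%, against 8.47%) and 26 replicate 2 only (11.1%, against 12.8%). The other 128 overlapped neither (54.7%, 48.3 to 60.95), against 51.7%. These shares on IV are near those of the whole list. Median score and width of the 68 peaks were 14.3 and 694 bp, and they held 57.9% of the sequence covered on IV. The 128 had 3.98 and 223.5 bp, and held 27.9%. In the lowest quartile of combined scores on IV (1.38 to 3.61) 3 of 59 peaks overlapped both replicates and 51 neither, and in the highest (8.73 to 55.6) 49 did and 5 did not overlap any. Median widths in these quartiles were 197 and 696 bp, so width rose with score here too.

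Scores of the weak peaks were often tied: the 234 peaks had 150 distinct values, and 13 of them stood at exactly 3.98, 10 at 3.26 and 7 each at 2.92 and 5.16. Among the peaks found in neither replicate, 49 of 128 lay within 5 kb of a replicate peak, and the median distance was 19.1 kb. Of the 128, 34 lay in the dense region described below, where replicate 2 had 27 peaks. These distances were measured on IV only. The 2 strongest of these 128 were at 8574488 to 8574783 (score 12.7) and 8580562 to 8580862 (score 11.5). No replicate peak lay within 105 kb of the first or 111 kb of the second. Between them lay weaker combined peaks, also found in neither replicate, at 8576954 to 8577289 (score 3.24) and 8580171 to 8580321 (score 5.37). The third strongest was the last peak of the chromosome (17493459 to 17493824, score 9.55). It was followed by 16518844 to 16519096 (score 9.20), which ended 0.027 kb before a replicate 2 peak, and 6717573 to 6718539 (score 8.81), inside the dense region.

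Conversely, a few narrow regions were called in both replicates but not in the combined list. There were 6 of them on IV, so 73 of the 79 shared replicate 1 peaks (92.4%, 84.4 to 96.5) were in the combined list, against 96.8% (94.3 to 98.2) on the other 5 chromosomes. The 6 started in replicate 1 at bases 1, 1076686, 5878212, 6210018, 9764762 and 12584912, and were 143 to 228 bp wide. The first scored 152 in replicate 1 and 135 in replicate 2, and the second 65.9 and 50.3. The peaks at 5878212 and 6210018 scored 98.2 and 72.7, and 124 and 112. The last 2 scored 71.5 and 67.7, and 80.04 and 121. Replicate 1 was the higher in 5 of the 6, the reverse of most pairs on IV.

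IV carried a dense region in the left of its middle part. Joining combined peaks no more than 10 kb apart left a run of 52 peaks in 62.08 kb (6668408 to 6730487), which is 22.2% of the combined peaks on IV and 21.4% of their covered sequence. Its peaks covered 42.2% of the run. Their scores ran from 1.67 to 11.9, with a median of 5.32, near that of all combined peaks on IV (5.415). The highest of them ranked 41 on IV. Replicate 2 had 27 peaks there, with scores from 51.3 to 272 and a median of 84.9, covering 10.4% of the run. Replicate 1 had 8, all between 50.2 and 68.3, covering 3.43%. The region was therefore present in each list, but its replicate 1 peaks were all close to the lowest score in that list. III had a run of like size, with 49 combined peaks in 47.5 kb (23.9% of its combined peaks), and its largest runs held 28 peaks in replicate 1 and 42 in replicate 2, against 7 and 19 on IV.

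Of the 52 combined peaks of the dense region, 6 overlapped both replicates, 1 replicate 1 only, 11 replicate 2 only and 34 neither. Of the 8 replicate 1 peaks, 6 overlapped a replicate 2 peak, and of the 27 replicate 2 peaks, 6 overlapped a replicate 1 peak. Within the run, peaks no more than 2 kb apart formed all 3 groups of at least 6 combined peaks on IV. The first group had 9 peaks (6668408 to 6675713), where replicate 2 had 3 peaks, including its highest of the region, and replicate 1 none. The second had 16 peaks (6686749 to 6700284), with 4 in replicate 2 and 1 in replicate 1, none of which overlapped across the replicates. The third had 24 peaks in 21.8 kb (6708689 to 6730487), covering 70.6% of it, with 19 peaks in replicate 2 and 7 in replicate 1. The calls that both replicates made in the region thus lay in the third group.

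**Figure D3:**
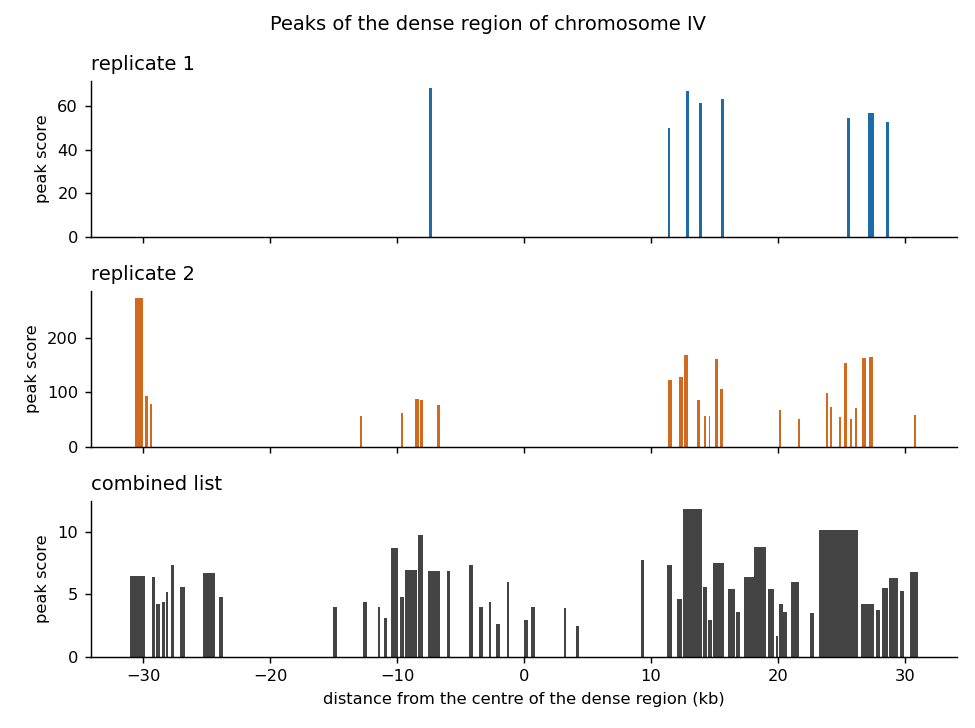
Peaks of the dense region in replicate 1 (8 peaks), replicate 2 (27) and the combined list (52); each bar spans a peak from its first to its last base, by distance in kb from the centre of the region, and its height is the peak's score in that list, so heights cannot be compared between panels. The combined peaks form blocks on both sides of the centre, and 7 of the 8 replicate 1 peaks lie in the right block.

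Smaller groups were found in the right of the middle part and near the right end. Groups of at least 6 replicate 2 peaks numbered 4: 2 of 8 peaks in the dense region, 8 peaks at 11610692 to 11614905 and 6 at 17059715 to 17062825. At the former of the last pair the combined list had wide peaks, of 2274 bp (11610688 to 11612961, score 14.0) and 1439 bp (11613024 to 11614462, score 9.05). Replicate 1 scored up to 299 there and replicate 2 up to 111. This reversed the usual order of the replicates on IV. At the group near the right end, replicate 2 reached 997 and replicate 1, with 2 peaks, 243. A group of 5 combined peaks at 11033623 to 11035975, named after its values were seen, was matched closely by 5 replicate 1 peaks (59.3 to 144) and 4 replicate 2 peaks (102 to 176). The other group of 5, at 13734372 to 13739819, was not: it held 1 replicate 1 peak (54.4) and no replicate 2 peak, and 4 of its 5 combined peaks overlapped neither replicate.

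Counted over the whole chromosome, 133 of 234 combined peaks on IV (56.8%) had another midpoint within 5 kb, against 61.5% over all chromosomes. In replicate 1 it was 56 of 116 (48.3%, against 57.6%) and in replicate 2 88 of 139 (63.3%, against 72.0%). Each share on IV thus lay below that of its whole list. Outside the dense region the shares were 44.5% of 182 combined peaks, 45.4% of 108 in replicate 1 and 54.5% of 112 in replicate 2. Joined at 2 kb, the replicate 1 peaks gave 83 loci (62 of a single peak), those of replicate 2 gave 81 (58) and combined peaks 142 (107).

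The profile of peaks along the chromosome depended on whether the dense region was counted. By peaks, the middle 33.3% of IV had 16.3 per Mb in the combined list and the ends 11.9, a log2 ratio of 0.45 (exact conditional 95% interval 0.06 to 0.84). Without the 52 peaks of the dense region the middle had 7.37 per Mb and the log2 ratio was -0.69. The dense region was picked as the largest run of IV, and the ends kept their own runs. Leaving it out could therefore only lower this ratio. Counted as loci, the middle had 5.83 per Mb and the ends 9.26, a log2 ratio of -0.67 (-1.27 to -0.10). A centre from 3.9 to 13 Mb, taken from memory of a published recombination map and rounded, gave -0.018 for peaks and -0.86 for loci. The direction for peaks thus changed when 62.08 kb of sequence was left out, while loci were sparser in the middle in each of these settings. Sparser loci in the middle were not particular to IV. Every other chromosome had them in the combined list, with log2 ratios for the middle 33.3% from -1.20 (II) to -0.64 (V).

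The replicates had the same order of the middle and the ends as the combined list, with smaller differences. In replicate 1 the middle had 7.20 peaks per Mb and the ends 6.35, and without the dense region the middle had 5.83. Replicate 2 had 9.60 and 7.12, and 4.97 without it. As loci the middle and the ends had 4.29 and 4.97 per Mb in replicate 1 and 3.77 and 5.06 in replicate 2. The intervals of all of these ratios include equal density, so no difference was detectable within a replicate.

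The left and the right of IV were unlike. In replicate 2 the left part had 3.26 peaks per Mb (exact Poisson 95% interval 1.96 to 5.09) and the right part 10.98 (8.45 to 14.02). In replicate 1 they had 4.80 (3.19 to 6.94) and 7.89 (5.78 to 10.5). In the combined list they had 9.09 (6.81 to 11.9) and 14.7 (11.8 to 18.2), so the right had more in each list, and the intervals overlapped in replicate 1 and, narrowly, in the combined list. Combined peaks of the left part were also weaker, with a median score of 3.98 against 5.99 in the right. Of them, 34 of 53 (64.2%, 50.7 to 75.7) overlapped neither replicate, against 39 of 86 in the right (45.3%, 35.3 to 55.8). Chromosome I had this pattern too, with median scores of 3.98 in the left and 5.16 in the right. There, 40 of 69 peaks in the left overlapped neither replicate, against 32 of 80 in the right. On II, III, V and X the left had the higher median score. The share in neither replicate was higher in the right on II, V and X, and nearly equal on III. More combined peaks lay in the right on I and V too, but fewer on II, III and X. On IV the replicates were not alike in score and sharing. Median scores in the left and the right were 91.3 and 104 in replicate 1, but 179 and 146 in replicate 2. Of replicate 1 peaks, 53.6% in the left and 76.1% in the right were found in replicate 2. Of replicate 2 peaks, 68.4% in the left and 54.7% in the right were found in replicate 1. Replicate 2 peaks with scores of 500 or more were 4 of 19 in the left, 3 of 56 in the middle and 15 of 64 in the right. In replicate 1 they were 3 of 28, 2 of 42 and 4 of 46. As a share of the peaks in each part, peaks with such scores were thus similar in the left and the right in both replicates.

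**Figure D4:**
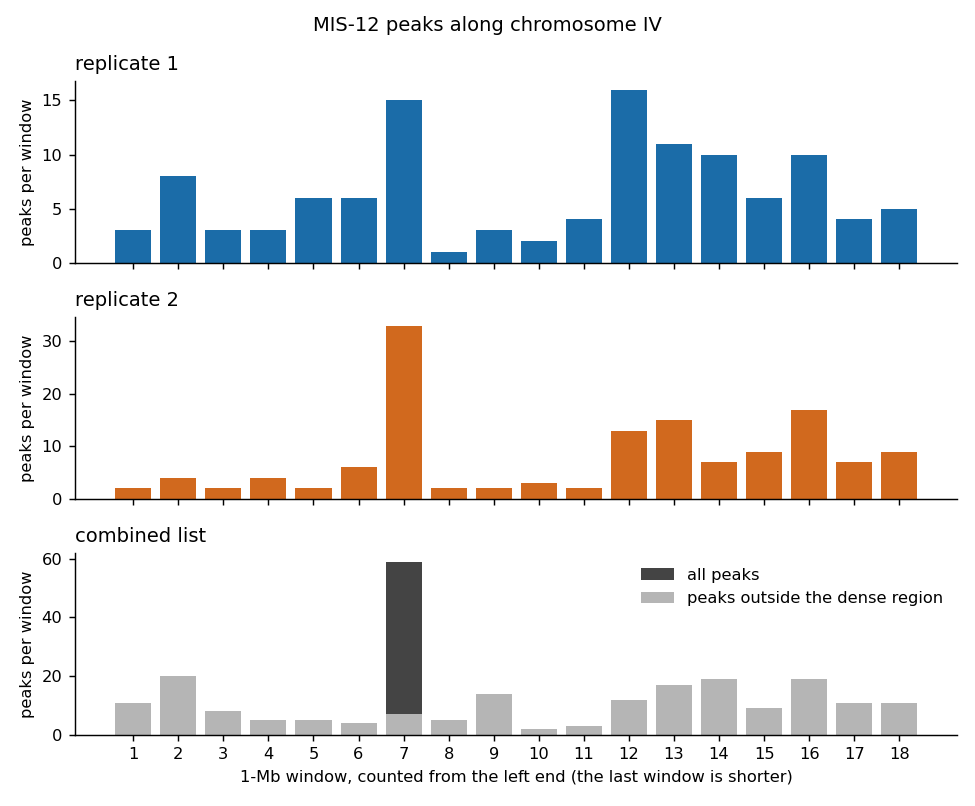
Number of peaks by midpoint in 1-Mb windows of chromosome IV, from the left end (window 1) to the right end (window 18, shorter), in replicate 1, replicate 2 and the combined list; in the lowest panel the light bars leave out the dense region. Window 7 holds 15, 33 and 59 peaks, of which 7 combined peaks remain without the dense region, and windows 8 to 11 hold 1 to 4 peaks each in replicate 1 and 2 or 3 in replicate 2.

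Window by window, the replicates followed each other. Over the 17 complete 1-Mb windows, the numbers of peaks had a Spearman's rho of 0.79 and a Pearson's r of 0.80, a description in which window 7 is the extreme point. The highest replicate 1 count was 16, in window 12, and the lowest was 1, in window 8. In replicate 2 the counts ranged from 2 to 33. Windows 8 to 11 together held 10 replicate 1 peaks and 9 replicate 2 peaks, and 24 combined peaks, 14 of them in window 9.

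Between the peaks lay long empty stretches. The longest without a combined peak ran from 9413679 to 10681865, over 1268 kb, and held 1 peak of each replicate, the shared one near 9764762. Replicate 1 had its longest from 7441300 to 8468556 (1027 kb), where the combined list had 7 peaks and replicate 2 had 1. Replicate 2 had its longest from 9764947 to 10943419 (1178 kb), with 1 peak in each of the other lists. The same stretch of the middle, from the shared peak near 9764762 to 10681747, was empty in all 3 lists (917 kb).

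At the left end, both replicates had a peak from the first bases, 1 to 192 (score 152) and 2 to 218 (score 135). The first combined peak lay at 8478 to 8624 and scored 3.26. At the right end, both replicates called a pair of nearly touching peaks, 17492302 to 17492693 and 17492695 to 17492995 in replicate 1 (scores 244 and 325) and 17492339 to 17492654 and 17492666 to 17492959 in replicate 2 (scores 254 and 319). The combined list joined each pair in a single peak (17492263 to 17493000, score 22.9). Scores at both ends were thus nearly equal in the replicates, unlike at most peaks of the right part. Input signal and repeated sequence at the ends were not examined, so these peaks are not shown to be MIS-12 bound there.

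By peaks per Mb, IV lay within the range of the other autosomes. It had 6.63 peaks per Mb in replicate 1 (5.48 to 7.95), 7.95 in replicate 2 (6.68 to 9.38) and 13.4 in the combined list (11.7 to 15.2). The ratio to the other autosomes (I, II, III and V) was 0.878 (0.711 to 1.08), 1.02 (0.837 to 1.23) and 1.04 (0.894 to 1.20), and all these intervals include 1. With the largest run of peaks joined at 10 kb left out on each autosome, the dense region on IV among them, the combined ratio was 0.911 (0.771 to 1.07). Counted as loci, IV had the most per Mb of any chromosome in each list, with 4.74, 4.63 and 8.12, but V was almost level with it in replicate 1 and the combined list (4.73 and 8.08). In replicate 2 the ratio for loci was 1.37 (1.05 to 1.77), and in replicate 1 and the combined list 1.06 (0.823 to 1.36) and 1.06 (0.870 to 1.27). Covered sequence per Mb was lower than on the pooled other autosomes, at 0.729, 0.828 and 0.905 times theirs, although II had less than IV in each list (3.70, 3.45 and 6.36 kb per Mb against 3.89, 4.18 and 6.98).

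**Figure D5:**
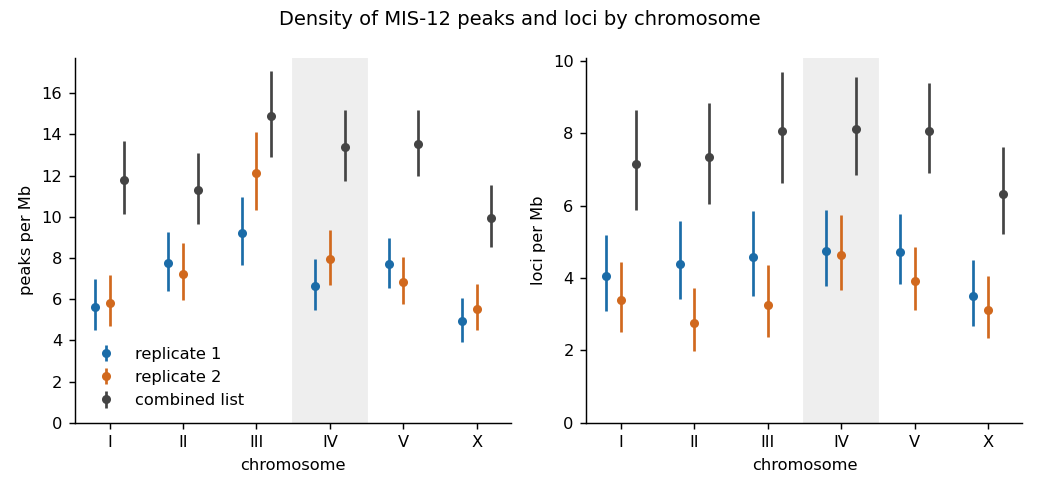
Peaks per Mb (left) and loci per Mb (right, peaks no more than 2 kb apart joined) on each nuclear chromosome in the 3 lists; points are counts divided by length, bars are exact Poisson 95% intervals and the shading marks chromosome IV. IV lies within the range of the other autosomes by peaks, with 13.4 per Mb in the combined list, and by loci has 8.12 per Mb there, next to 8.08 on V.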

How the data were processed

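In all, 3 lists of peaks were analysed. Per the file headers, peaks were called on WormBase WS220 with MACS (no version stated) for each ChIP sample and with MACS v2 for the combined list. As to the aligner, threshold, control and any pooling of replicates, these were not given in the sources used here. The value deposited by the authors for each peak is a score of unstated definition. No read counts are in the lists, so the depth behind a peak is unknown. Overlaps, loci and intervals were computed with Python 3.11.15, numpy 2.4.6 and scipy 1.17.1, and figures with matplotlib 3.10.9, after the functions were tested on simulated lists. Positions count from 1, and a peak belongs to the window or part that holds its midpoint. Peaks of 1 list no more than 2 kb apart were joined into loci. Shares carry Wilson intervals, densities exact Poisson intervals and ratios of densities exact conditional intervals, all 95% and for counting error only. No test was made, since peaks are not replicates.

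Peaks were named by rule: the 12 highest-scoring and 5 widest combined peaks, the 5 strongest found in neither replicate, the 3 strongest unshared peaks of each replicate, the 5 pairs of most different score, groups of at least 6 combined peaks, first and last peaks and the longest empty stretch. Others were named after their values were seen. Members, lists and rules were chosen with earlier results of these data known, and the dense region was defined after seeing the data. Alternatives were other overlap rules, the highest-scoring 50% of each list, loci, other middles, each replicate alone and leaving out the dense region.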

Additional observations from a re-analysis of the deposited data

How the results depend on the processing

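Of 52 recomputed values, 34 stayed within the 95% interval of the reported value, 16 moved outside it and 2 changed direction. Those 2 were the log2 ratio of peaks per Mb in the middle to the ends, which was -0.018 with the centre of the recombination map and -0.69 without the dense region. In the latter setting the ends kept their own runs. With 50% reciprocal overlap, 49.6% of replicate 2 peaks were shared, and 19.2% of combined peaks were found in both replicates and 68.8% in neither. With the highest-scoring 50% of each list these values were 69.2%, 35.3% and 47.9%. Sharing of replicate 2 was 69.1% for loci and 67.0% without the dense region. The density ratio of IV to the other autosomes was 0.878 in replicate 1 and 0.807 without the dense region, a setting in which the other autosomes kept their own runs; without the largest run of each autosome it was 0.911. Peaks with a neighbour made up 48.7% within 2 kb, 6.34% of loci, 48.3% in replicate 1, 63.3% in replicate 2 and 44.5% without the dense region. Set against 1 replicate alone, 59.8% to 65.8% of combined peaks had no counterpart. Fewer peaks or joined peaks enter several of these settings by construction; for the others the cause was not tested. After seeing the data, settings without the dense region, without the largest run of each autosome, or with only combined peaks found in both replicates, were added. No paired analysis was possible because the inputs were not analysed here and the results come from no test.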
